A study of Mus musculus with 9 samples.

Results

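The genes described here encode the contractile apparatus of smooth muscle. They are Acta2, Tagln, Cnn1, Cnn2, Myh11, Tpm1, Tpm2, Mylk, Des and Cald1, and all probe sets that the annotation of the array pairs with one of these symbols alone were taken. This gave 26 probe sets for 10 genes, out of 45037 probe sets and 18193 genes that were measured. The genes were chosen by name and not by a cut on the measured values, but with earlier results of these data known.

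Expression was measured in E14 mouse embryonic stem cells (ESCs), an established line, and in embryoid bodies, the aggregates in which ESCs differentiate into many cell types. Total RNA of ESCs was hybridized to 4 Affymetrix arrays of the mouse genome, labelled 2, 6, 8 and 10, and RNA of embryoid bodies to 5, labelled 1, 3, 5, 7 and 9. Both groups came from E14 cells with no treatment, the labels cite the same culture protocol for ES cells under both, and they give neither the age of the embryoid bodies nor the meaning of the array numbers. The methods call the ESC arrays biological replicates and do not describe the embryoid bodies, so P values measure only the spread between these samples, which may be technical.

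In smooth muscle, actin filaments slide past filaments of smooth muscle myosin. Myosin light chain kinase starts contraction by phosphorylating the myosin light chain, while tropomyosin, caldesmon and calponin lie on the actin filament and modulate it. The transcription of many of these genes depends on serum response factor (SRF) and its partner myocardin, which act through a short DNA element called the CArG box. Several members, among them alpha smooth muscle actin and transgelin, are also expressed outside mature smooth muscle, in the embryonic heart, in myofibroblasts and in many cultured cells, whereas the smooth muscle myosin heavy chain is the most restricted of them.

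The promoters of Acta2 and Cnn2 are shown because they were the only ones in which the CArG box letters were found among the windows searched for these genes, and because both genes rose in embryoid bodies. Each stretch is the 120 bases before the transcription start that RefSeq gives for the window, on GRCm38.p6, written in the direction of transcription. Capitals mark matches to the CArG box, defined as CC, then 6 bases that are A or T, then GG, or the same with 1 of the 6 replaced by G or C. The Acta2 stretch is chr19:34255374-34255493 on the minus strand, and the annotated gene extends further upstream, to position 34255585. The Cnn2 stretch is chr10:79988480-79988599 on the plus strand.
Acta2: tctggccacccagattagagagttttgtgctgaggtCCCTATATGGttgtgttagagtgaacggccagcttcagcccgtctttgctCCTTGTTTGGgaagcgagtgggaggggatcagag
Cnn2: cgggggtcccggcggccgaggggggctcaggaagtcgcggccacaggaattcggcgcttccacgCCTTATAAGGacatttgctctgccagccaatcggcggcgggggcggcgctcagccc

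The Acta2 stretch held 2 matches with 1 substituted base, whose first bases lay 84 and 34 bases before the start. The Cnn2 stretch held 1 match with no substitution, 56 bases before the start. Promoter windows of 300 bases (250 before and 50 after the start) were present for 8 of the 10 genes, with 2 for Cald1, and no match was found in those of Cnn1, Tpm1, Tpm2, Mylk, Des and Cald1. Tagln and Myh11 had no window in the table. Over all 32851 mouse windows, 1.63% held an unsubstituted match and 9.98% held one with at most 1 substitution. The motif reads the same on both strands. A match describes the letters and is not a bound site.

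All values below are log2 of the deposited GCRMA intensity, called the level, and each difference is embryoid bodies minus ESCs on that scale. GCRMA estimates expression after subtracting a background modelled from probe sequence. Levels under log2 4 are called near the floor. Levels of different probe sets also depend on how well their probes bind, so each is compared only with itself across arrays. The number of arrays limits the precision. Over all probe sets, any 2 ESC arrays had a Pearson correlation of 0.995 to 0.998, any 2 embryoid body arrays one of 0.997 to 0.999, and an array of each kind one of 0.968 to 0.977. In such bulk samples, fewer cells of a type and less RNA per cell cannot be told apart.

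Of the 10 genes, each read from its probe set of highest mean, 6 were called higher in embryoid bodies by limma at a Benjamini-Hochberg adjusted P under 0.05, and 0 were called lower. The 6 were Acta2, Tagln, Cnn2, Tpm1, Tpm2 and Cald1. Among all 18193 genes, 15.7% were called higher and 14.7% lower. Counted by probe set, 14 of the 26 members were called higher and 0 lower, whereas 10.5% of all probe sets were called higher and 10.6% lower. The median difference of the 10 genes was 0.64, beside a median of -0.04 over all genes. The 8 probe sets with a mean near the floor supplied none of the calls, and all 14 called were among the 18 with a mean of at least log2 4. Over all probe sets at that level, 20.2% were called higher.

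**Figure D1:**
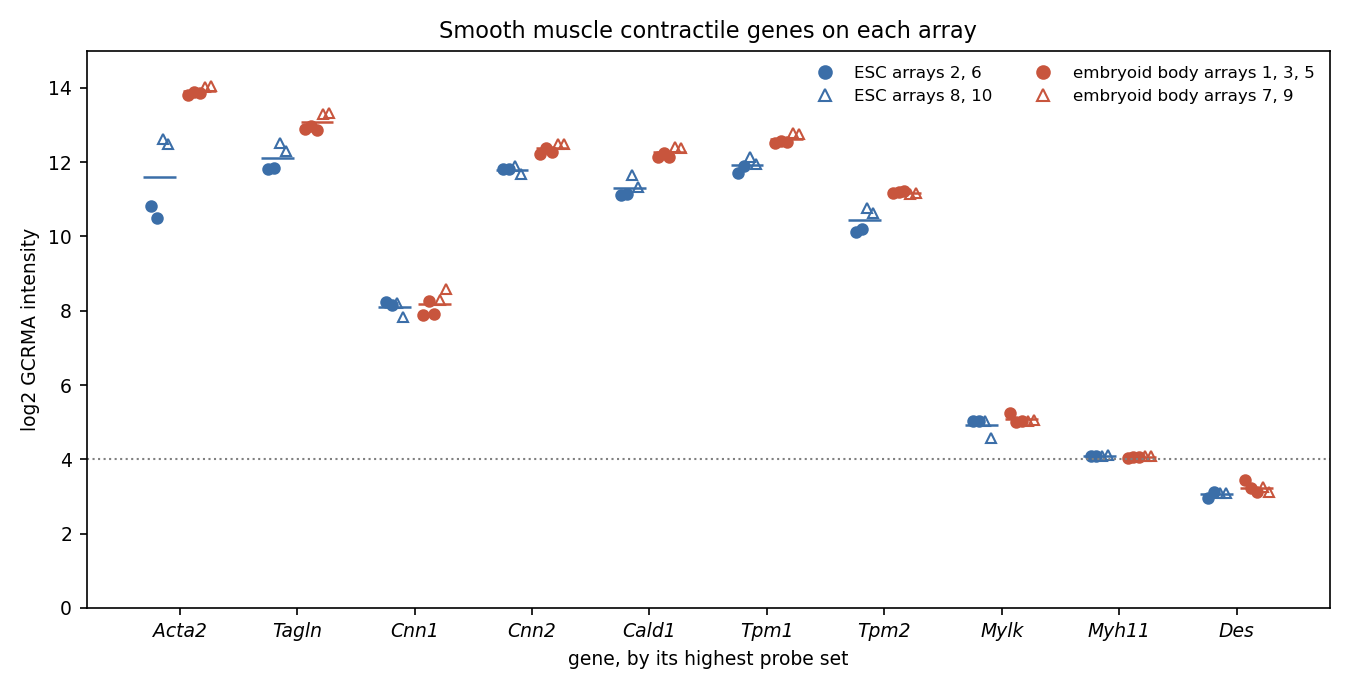
Level (log2 GCRMA intensity) of the highest probe set of each gene on each array. Blue symbols are ESC arrays and red symbols embryoid body arrays, open triangles are arrays numbered 7 and above, bars are group means, and the dotted line marks log2 4. Acta2 ran from 10.49 to 12.64 on the ESC arrays and from 13.80 to 14.05 on the embryoid body arrays, while Mylk, Myh11 and Des lay low on all arrays.

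Among these genes the actin had the largest difference. Acta2 encodes alpha smooth muscle actin, the main actin of vascular smooth muscle. Its probe set 1416454_s_at read 10.81, 10.49, 12.64 and 12.49 on ESC arrays 2, 6, 8 and 10. On embryoid body arrays 1, 3, 5, 7 and 9 it read 13.80, 13.90, 13.85, 14.01 and 14.05. All embryoid body arrays lay above all ESC arrays, and ESC arrays 8 and 10 lay well above arrays 2 and 6. The difference was 2.32 ± 0.44 (SE; 95% interval 1.33 to 3.30), or 4.98-fold, with an adjusted P of 0.00394 by limma. The suffix _s_at marks probes that match transcripts of more than one gene or several transcripts of one, so related actins may contribute to this value.

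A second Acta2 probe set with a plain suffix gave the same direction. Probe set 1444105_at read 5.02, 4.98, 5.01 and 5.31 on the ESC arrays, and 6.57, 7.04, 6.71, 6.99 and 6.99 on the embryoid body arrays. Its ESC arrays did not separate into 8 and 10 against 2 and 6, and no array of one group overlapped the other. The difference was 1.78 ± 0.12, or 3.44-fold, with an adjusted P of 5.64e-06 by limma. It was the only member probe set called when limma was asked for a change greater than 2-fold. The third Acta2 probe set, 1456658_at, stayed near the floor, between 2.21 and 2.31 on all arrays.

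Whether probe sets of one gene changed by different amounts was tested for 16 pairs, each against the highest probe set of its gene, with an exact permutation test of arrays between groups. With 4 against 5 arrays the smallest P of this test is 0.00794. For the 2 expressed Acta2 probe sets the changes differed by -0.53 (exact permutation test, two-sided, adjusted P = 0.390). The 3 pairs that passed each set a probe set near the floor against a high one, in Acta2, Tpm1 and Cald1.

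Genes whose products lie along the actin filament had smaller differences than Acta2. Tagln encodes transgelin (SM22 alpha), a small actin-bundling protein and an early marker of the smooth muscle lineage. Probe set 1423505_at read 11.83, 11.85, 12.50 and 12.29 on ESC arrays 2, 6, 8 and 10, and 12.90, 12.98, 12.86, 13.30 and 13.33 on embryoid body arrays 1, 3, 5, 7 and 9. The groups did not overlap, although ESC array 8 came within 0.36 of the lowest embryoid body array. The difference was 0.96 ± 0.17 (95% interval 0.58 to 1.33), or 1.94-fold, with an adjusted P of 0.00242 by limma.

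Cald1 encodes caldesmon, which binds actin and tropomyosin and inhibits the myosin ATPase. Its highest probe set, 1424769_s_at, read 11.11, 11.13, 11.65 and 11.34 on the ESC arrays and 12.15, 12.25, 12.13, 12.40 and 12.39 on the embryoid body arrays. Every embryoid body array was above every ESC array. The difference was 0.96 ± 0.11, or 1.94-fold (limma adjusted P = 0.000235). Probe sets 1424768_at and 1424770_at gave differences of 0.95 ± 0.18 and 0.82 ± 0.14, both called and without overlap.

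The remaining Cald1 probe sets were not called. Probe set 1433147_at read 3.85 to 3.92 on the ESC arrays, and 5.75, 4.79, 4.18, 3.89 and 3.92 on embryoid body arrays 1, 3, 5, 7 and 9. Arrays 1, 3 and 5 were above the ESC arrays and arrays 7 and 9 were not. The difference of 0.62 ± 0.35 had a limma adjusted P of 0.171, and the embryoid body SD of 0.78 was the largest of any member probe set in that group. Probe set 1433146_at lay near the floor, between 2.19 and 2.33.

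Tpm1 and Tpm2 encode the alpha and beta tropomyosins, coiled-coil proteins that run along the actin filament in muscle and nonmuscle cells. The highest Tpm1 probe set, 1423721_at, read 11.72, 11.89, 12.13 and 11.95 on the ESC arrays and 12.52, 12.58, 12.53, 12.78 and 12.76 on the embryoid body arrays. The groups were separate, and the difference was 0.71 ± 0.09, or 1.64-fold (limma adjusted P = 0.000323). Probe sets 1423049_a_at and 1456623_at gave 0.93 ± 0.08 and 0.86 ± 0.12, both called and without overlap, where the suffix _a_at marks probes shared by alternative transcripts of one gene. The fourth Tpm1 probe set, 1447713_at, lay between 2.85 and 3.29 on all arrays.

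For Tpm2, probe set 1419738_a_at read 10.12, 10.21, 10.77 and 10.64 on ESC arrays 2, 6, 8 and 10 and 11.17, 11.21, 11.22, 11.13 and 11.18 on the embryoid body arrays. The embryoid body arrays lay within 0.09 of each other and above every ESC array, while the ESC arrays spanned 0.65. The difference was 0.75 ± 0.13, or 1.68-fold (limma adjusted P = 0.00219). The 3 other Tpm2 probe sets were also called, with differences of 0.84 ± 0.17 for 1425028_a_at, 0.65 ± 0.17 for 1449577_x_at and 0.43 ± 0.11 for 1419739_at. On the last of these ESC array 8 and embryoid body array 7 had the same value of 5.27, so the groups were not separate. These Tpm2 calls were the least stable of the group. Within arrays 8 and 10 against 7 and 9, the limma adjusted P values of these 3 were 0.107, 0.275 and 0.472.

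**Figure D2:**
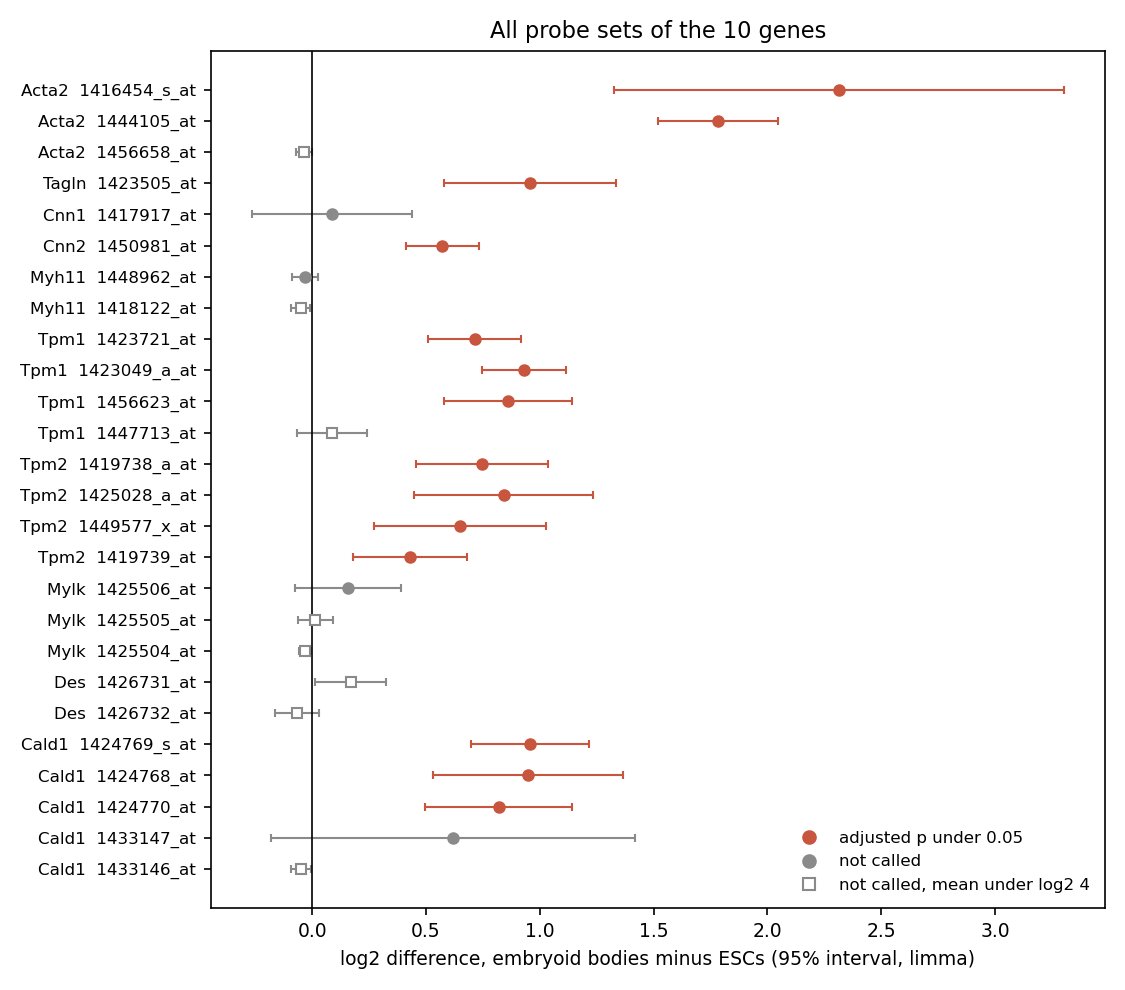
Difference in log2 level, embryoid bodies minus ESCs, with its 95% interval from limma for all 26 probe sets. Red points passed an adjusted P of 0.05, grey points did not, and open squares have a mean under log2 4. All 14 called probe sets lie to the right of 0, from 0.43 for a Tpm2 probe set to 2.32 for Acta2.

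Of the calponins, which bind actin and inhibit the myosin ATPase, Cnn2 was called and Cnn1 was not, and the difference between them was not tested. Cnn2 encodes calponin 2, found in smooth muscle and many nonmuscle cells. It read 11.80, 11.81, 11.90 and 11.67 on the ESC arrays and 12.21, 12.39, 12.27, 12.50 and 12.48 on the embryoid body arrays (probe set 1450981_at). The groups did not overlap, and the difference was 0.57 ± 0.07, or 1.49-fold (limma adjusted P = 0.000308).

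Cnn1 encodes calponin 1, the isoform of differentiated smooth muscle. Its probe set 1417917_at read 8.22, 8.14, 8.22 and 7.82 on ESC arrays 2, 6, 8 and 10 and 7.90, 8.25, 7.90, 8.30 and 8.59 on embryoid body arrays 1, 3, 5, 7 and 9. The ranges overlapped, with embryoid body arrays 1 and 5 below 3 of the 4 ESC arrays. The difference was 0.09 ± 0.16 (95% interval -0.27 to 0.44), between 0.832-fold and 1.36-fold, and was not called (limma adjusted P = 0.655). Its sign was not stable, since it was -0.17 within arrays numbered under 7 and 0.42 within those numbered 7 and above.

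Neither the myosin heavy chain nor its kinase was called. Myh11 encodes the smooth muscle myosin heavy chain. Its higher probe set, 1448962_at, read 4.09, 4.09, 4.08 and 4.11 on the ESC arrays and 4.03, 4.06, 4.06, 4.08 and 4.09 on the embryoid body arrays. All values lay just above the floor within 0.1 of each other. The SD over the ESC arrays was 0.014, above that of only 6.2% of probe sets with a mean of at least log2 4. Values this low and flat cannot be told from background, so they do not show an unchanged level of Myh11. The difference was -0.03 ± 0.03 (limma adjusted P = 0.339). The other Myh11 probe set, 1418122_at, lay between 2.32 and 2.43.

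Mylk encodes myosin light chain kinase, and its highest probe set, 1425506_at, read 5.03, 5.03, 5.03 and 4.58 on the ESC arrays and 5.25, 5.01, 5.02, 5.03 and 5.06 on the embryoid body arrays. Except for ESC array 10 and embryoid body array 1, all arrays were within 0.1 of each other. The difference was 0.16 ± 0.10 (limma adjusted P = 0.219). The other 2 Mylk probe sets were near the floor, at 2.05 to 2.12 and 2.60 to 2.79.

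Des encodes desmin, the intermediate filament protein of muscle. Probe set 1426731_at read 2.96, 3.11, 3.09 and 3.08 on the ESC arrays and 3.44, 3.24, 3.11, 3.26 and 3.11 on the embryoid body arrays. All of these are near the floor, and the ranges met at 3.11. The difference was 0.17 ± 0.07 (limma adjusted P = 0.0865), and probe set 1426732_at lay between 2.31 and 2.56. For values this low a change in transcript level cannot be told from the background of the array, so no level of Des is given for either group.

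The levels on single ESC arrays fell into pairs for several members. Acta2 was 3.77-fold higher on the mean of ESC arrays 8 and 10 than on that of arrays 2 and 6, a log2 difference of 1.91. The SD of 1416454_s_at over the 4 ESC arrays was 1.11, above that of 99.8% of the 22766 probe sets with a mean of at least log2 4, whose median SD was 0.12. On the embryoid body arrays its SD was 0.10. The division of arrays was seen in the data and is given with no test.

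The same pairs of arrays differed in some other members to a smaller extent. Tagln was higher on ESC arrays 8 and 10 by 0.56, the 3 highest Tpm2 probe sets by 0.54 to 0.69 and the 3 called Cald1 probe sets by 0.37 to 0.60. Of the 3 called Tpm1 probe sets, the highest differed by 0.24, 1423049_a_at by 0.08 and 1456623_at by -0.09. In contrast, Cnn2 differed by -0.02, Cnn1 by -0.16 and the second Acta2 probe set by 0.16. The arrays that carried more signal of the highest Acta2 probe set therefore carried more Tagln, Tpm2 and Cald1 signal, and not more signal of either calponin.

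**Figure D3:**
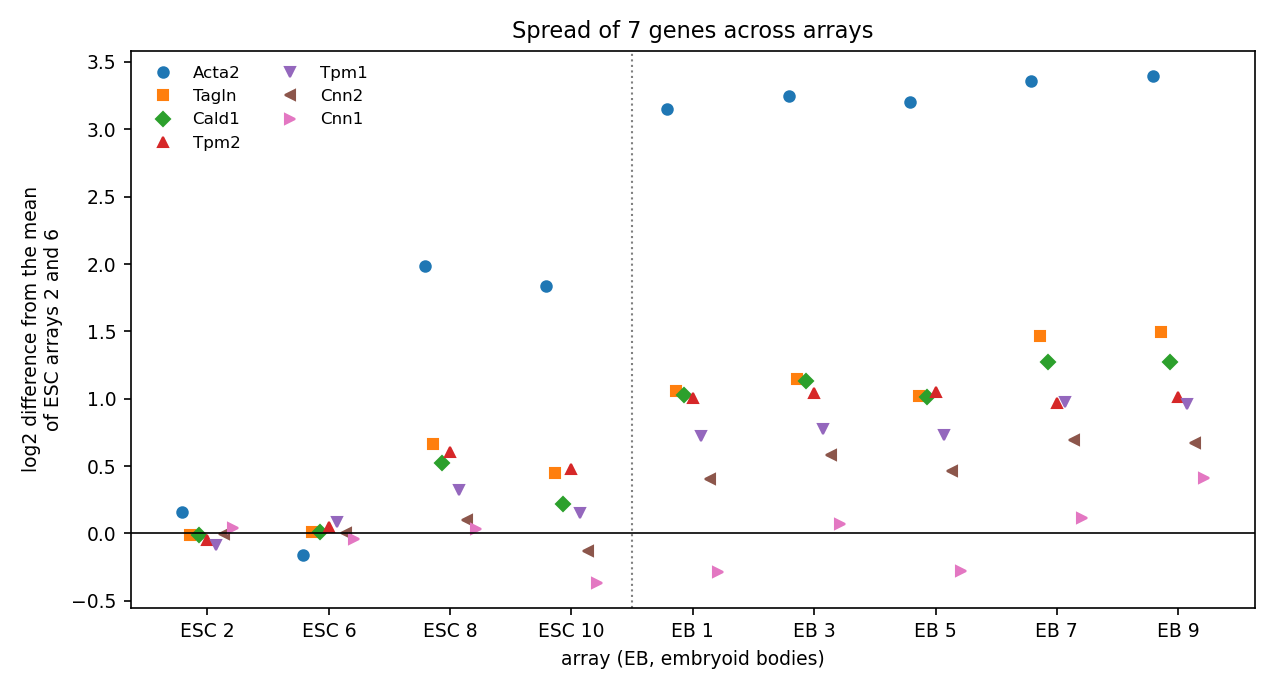
Level of the highest probe set of 7 genes on each array, as the log2 difference from the mean of ESC arrays 2 and 6 (symbols are offset sideways by gene). The dotted line parts ESC from embryoid body arrays. ESC arrays 8 and 10 stand 1.99 and 1.84 above that mean for Acta2, and the embryoid body arrays more than 3 above it.

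The size of the Acta2 change on probe set 1416454_s_at depended on which arrays were compared. It was 3.20 (9.20-fold) within arrays numbered under 7 and 1.47 (2.76-fold) within those numbered 7 and above, and both were called by limma, with adjusted P values of 8.88e-05 and 0.000778. With the array number as a block it was 2.41. The plain Acta2 probe set 1444105_at gave 1.78 and 1.83 in the same subsets. Tagln gave 1.07 and 0.92 in the same subsets, Cald1 1.06 and 0.90, the highest Tpm1 probe set 0.74 and 0.73, Tpm2 1.03 and 0.45, and Cnn2 0.48 and 0.70, all of them called in each subset. The 6 genes called with all arrays were thus also called in each subset. These subsets follow the division seen in the ESC arrays, which narrows the ESC spread of Acta2 within each. The calls within them are therefore no separate support.

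Some markers of other cell types were also higher on ESC arrays 8 and 10, and others were not. Among genes with a mean of at least log2 4, both of these arrays lay above both of arrays 2 and 6 for 6 of 11 fibroblast and pericyte markers, 4 of 14 heart and skeletal muscle markers, 3 of 5 endothelial markers and 2 of 10 pluripotency markers. For the contractile genes it was 5 of 9. Of the lists described below it was 6 of 20 other smooth muscle genes, 8 of 24 regulators and 4 of 17 nonmuscle relatives. Both arrays lay below both of arrays 2 and 6 for 8 other smooth muscle genes, 3 regulators and 7 nonmuscle relatives. The same held for 4 pluripotency, 1 endothelial and 1 heart and skeletal muscle marker, and for 0 contractile genes and 0 fibroblast and pericyte markers. The share over all genes was not computed, so these counts describe the arrays and cannot be read as particular to any list.

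In the muscle and fibroblast lists, a few genes made up much of the difference in sums between the pairs of ESC arrays. The 21 heart and skeletal muscle markers had a summed linear intensity of 957 and 922 on ESC arrays 2 and 6 and of 1735 and 1375 on arrays 8 and 10, but without the actins Acta1 and Actc1 the sums were 620, 516, 624 and 544. The 15 fibroblast and pericyte markers summed to 794 and 630, then 1289 and 1222, and without the collagen gene Col1a1 to 667, 520, 766 and 704. Without Col1a1 the sums thus stayed higher on arrays 8 and 10 than on arrays 2 and 6. Acta1, Actc1 and Col1a1 were left out after their values were seen, so the smaller differences without them were set in advance. Endothelial markers summed to 201, 186, 210 and 204, and pluripotency markers to 40084, 41206, 39617 and 37431.

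Single markers differed accordingly. Col3a1, a fibrillar collagen of mesenchymal cells, read 3.12, 3.65, 6.28 and 5.51 on ESC arrays 2, 6, 8 and 10, Pdgfrb, a receptor of pericytes and fibroblasts, 2.86, 3.62, 5.26 and 5.41, and Vim, the intermediate filament of mesenchymal cells, 11.73, 11.74, 13.14 and 12.89. These followed the pairs, whereas other markers of mesenchymal cells did not. The mean of arrays 8 and 10 minus that of arrays 2 and 6 was 0.00 for Twist1 and 0.18 for Fbln1. For Pdgfra it was -0.02, but its probe set was flat, at 6.90 to 7.10 on all arrays, and so could not show the pairs. For Lum it was 0.59, with 4.91 and 3.69 on arrays 2 and 6 beside 4.90 and 4.87 on arrays 8 and 10. Of the cardiac genes, Actc1 was higher on arrays 8 and 10, by 1.76. On ESC arrays 2, 6, 8 and 10 Myh6 read 6.64, 6.38, 6.57 and 5.49. Tnnt2 read 3.99, 3.80, 2.74 and 3.95 there, and Tnni1 4.69, 3.54, 3.53 and 3.55. Myh6, Tnnt2 and Tnni1 were lower in the mean of arrays 8 and 10, each through a single array, and none followed the pairs. The ESC means of Tnnt2 and Tnni1 were near the floor. Postn, a matrix protein that was high on the embryoid body arrays, stayed near the floor on the 4 ESC arrays, with a mean of 2.95, and Cspg4, Kcnj8, Abcc9 and Thy1 were near the floor on all arrays. These genes were named after their values were seen. The part of other cell types in the spread of Acta2 was not tested.

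The genes most like Acta2 were taken by rule. Their deviations from their group means over the 9 arrays had the highest Pearson correlation with those of its highest probe set. These were Igfbp4 (0.998), a binding protein of insulin-like growth factors, Id3 (0.997), an inhibitor of basic helix-loop-helix factors, Hspa1b (0.997), an inducible heat shock protein, Cdkn2b (0.995), an inhibitor of cyclin-dependent kinases, and Ccn4 (0.995), a matricellular protein. Igfbp4 read 6.33, 6.01, 8.60 and 8.31 on the ESC arrays, the same order of arrays as Acta2. Because the ESC arrays fall into 2 pairs, the measure mostly reads that division. It leaves out the difference between groups. Hspa1b was called lower in embryoid bodies (-1.04 ± 0.24, limma adjusted P = 0.0124), whereas Igfbp4, Id3, Cdkn2b and Ccn4 were called higher. By the same measure the nearest other members were Tpm2 (0.947) and the Cald1 probe set 1424770_at (0.932), with Tagln at 0.821 and Cnn1 at -0.12.

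Relatives of the members were set beside them to show which isoforms rose. They were chosen by family with their values known. Among actins, Actg2 of visceral smooth muscle rose by 1.82 ± 0.23 and Actc1 of the heart by 5.04 ± 0.42, whereas the cytoplasmic actin Actb rose by only 0.14 ± 0.04 and Actg1 differed by -0.02 ± 0.04 without a call. Acta1 of skeletal muscle differed by -0.68 ± 0.30 without a call, with its highest ESC values again on arrays 8 and 10 (9.59 and 9.10, against 8.05 and 8.16 on arrays 2 and 6). Actc1 read 6.14, 6.91, 8.42 and 8.15 on ESC arrays 2, 6, 8 and 10, the same pairs as Acta2.

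In the transgelin family, Tagln2 differed by 0.04 ± 0.04 and Tagln3 by -0.01 ± 0.09, and neither was called. Of the calponins, the nonmuscle Cnn3 rose by 0.27 ± 0.05, less than Cnn2. Tpm4 rose by 1.02 ± 0.07, more than either member tropomyosin, and Tpm3 was not called (-0.03 ± 0.03). Among myosin heavy chains, the nonmuscle Myh10 rose by 1.37 ± 0.09, the cardiac Myh6 and Myh7 by 4.58 ± 0.24 and 5.62 ± 0.19, and Myh9 (0.14 ± 0.11) and Myh14 (-0.19 ± 0.08) were not called. Differences between relatives were not tested.

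**Figure D4:**
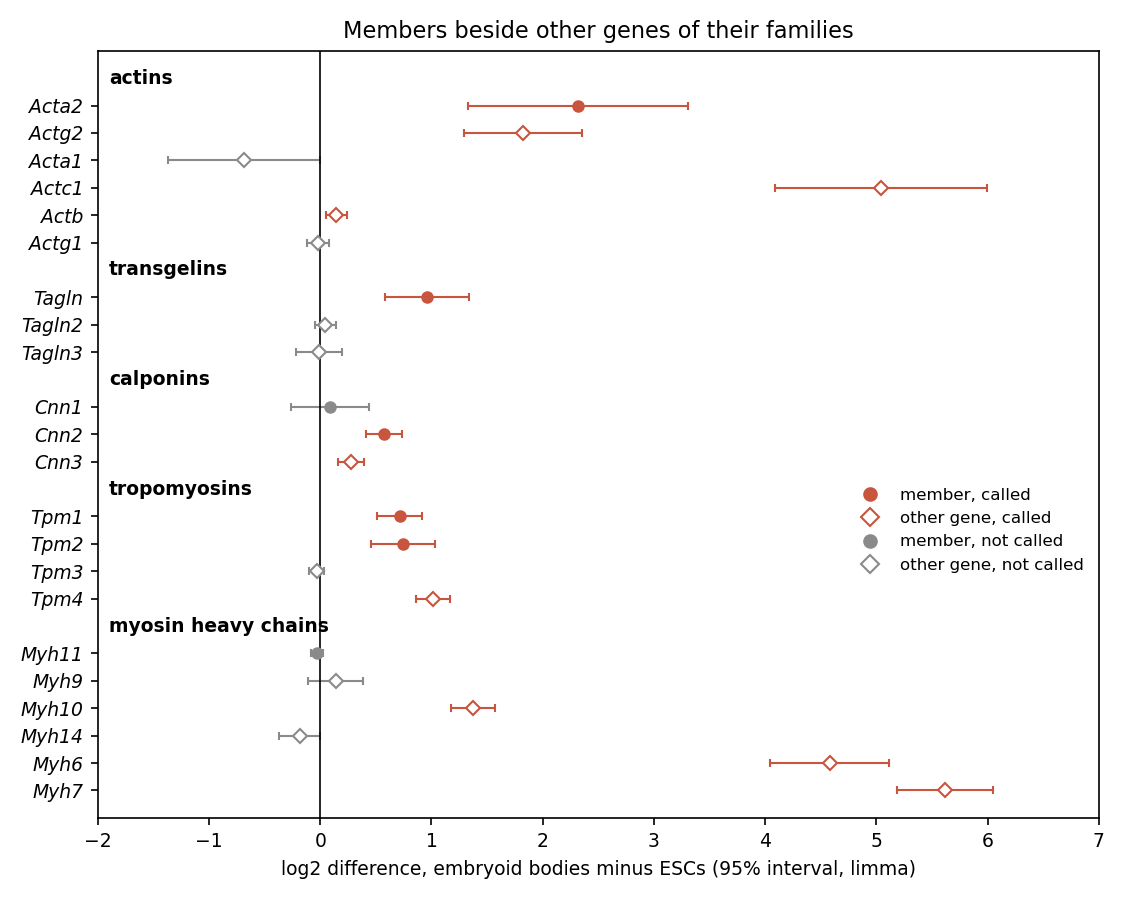
Log2 difference, embryoid bodies minus ESCs, with its 95% interval from limma for members (circles) and related genes (open diamonds) in 5 families, red where called. Myh7 (5.62) and Actc1 (5.04) of the heart stand farthest to the right, and the cytoplasmic actins, Tagln2, Tpm3 and Myh11 lie at 0 within 0.2.

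Other genes of smooth muscle cells and of contraction rose in part. Of 24 such genes on the array 12 were called higher and 0 lower, with a median difference of 0.45. The largest changes were of Npnt (3.50 ± 0.37), a ligand of integrin alpha 8, and of Itga8 itself (2.77 ± 0.34), followed by Rgs5 (1.91 ± 0.28), a regulator of G protein signalling in pericytes, and Actg2. Npnt read 4.51, 4.63, 5.91 and 5.12 on the ESC arrays and 7.76 to 9.25 on the embryoid body arrays. Vcl, vinculin of adhesion sites (-0.02 ± 0.08), and Pdlim7, an actin-associated adaptor (-0.27 ± 0.11), were not called. Lmod1, an actin nucleator restricted to smooth muscle, was near the floor on all arrays, at 2.09 to 2.22.

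Of 27 regulators of smooth muscle genes on the array 15 were called higher and 2 lower, with a median difference of 0.48. Myocd, which encodes myocardin, read 4.97, 3.42, 5.44 and 5.49 on the ESC arrays and 7.91, 7.92, 8.01, 7.85 and 7.98 on the embryoid body arrays. The groups were far apart, and the difference was 3.11 ± 0.38 (limma adjusted P = 0.000269). Srf itself rose by 0.48 ± 0.11. The myocardin-related factors Mrtfa and Mrtfb, which sense free actin, rose by 0.32 ± 0.08 and 1.24 ± 0.10. These 3 were named for their role with their values known.

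Gata6, a factor of heart, gut endoderm and vascular smooth muscle, rose by 3.08 ± 0.17. The 2 regulators that fell were Klf5, which fell by 3.62 ± 0.13, and Klf4, which fell by 3.08 ± 0.34. Both are Krüppel-like factors that are highly expressed in ESCs and that also act in smooth muscle cells, where Klf4 represses contractile genes. Klf4 read 9.24, 9.06, 10.32 and 10.08 on the ESC arrays, highest on the same arrays 8 and 10 as Acta2. Rhoa (0.04 ± 0.05) and Rock1 (0.16 ± 0.08), a GTPase and a kinase that control contraction and the actin cytoskeleton, were not called. Rock2 was not analysed here.

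Of 17 nonmuscle actomyosin relatives 6 were called higher and 2 lower, with a median difference of 0.09. Besides Myh10 and Tpm4, Vim rose by 1.61 ± 0.30, and Actn4, a nonmuscle actinin, fell by 0.64 ± 0.05. Actg1 and the light chain gene Myl12a (0.09 ± 0.06) were not called.

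Marker lists of other cell types an embryoid body can hold were higher too. Of 21 heart and skeletal muscle markers 12 were called higher and 0 lower (median 1.65), and their summed linear intensity was 922 to 1735 on the ESC arrays and 17573 to 20998 on the embryoid body arrays. The 4 with the largest change were called from ESC means near the floor, where a level cannot be told from background, so no size of change is given. Myl7, an atrial light chain, had a mean level of 2.42 in ESCs and 11.46 in embryoid bodies, Myl4 2.60 and 10.46, Tnnt2, cardiac troponin T, 3.62 and 11.44, and Tnni1 3.83 and 9.77. Nkx2-5, a cardiac transcription factor, was not called (0.31 ± 0.13), and the skeletal muscle factors Myod1 and Myog were near the floor on all arrays.

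Fibroblast and pericyte markers were called higher in 9 of 15 and lower in 0 (median 1.90), and their sums went from 630 to 1289 on the ESC arrays up to 11966 to 12744 on the embryoid body arrays. Postn was called from a mean of 2.95 in ESCs, near the floor, to 10.94 in embryoid bodies. Col3a1 rose by 7.85 ± 0.59, Pdgfrb by 5.32 ± 0.49 and Lum by 3.69 ± 0.40, whereas Pdgfra (0.06 ± 0.05) and Anpep (-0.16 ± 0.08) were not called. Endothelial markers were called higher in 5 of 8 and lower in 0 (median 0.69), with sums of 186 to 210 against 335 to 440. Kdr, a receptor of vascular endothelial growth factor, rose by 2.01 ± 0.29, Emcn by 0.86 ± 0.09 and Flt1 by 0.66 ± 0.10. Cdh5 was called as well, but its means of 2.59 and 3.93 were both near the floor. Esam (0.71 ± 0.23) and Tek (0.18 ± 0.19) were not called. Pecam1 was near the floor on all arrays.

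The markers of ESCs themselves were in place. Of 11 pluripotency markers 0 were called higher and 10 lower (median -3.27), and they summed to 37431 to 41206 on the ESC arrays and to 3782 to 7319 on the embryoid body arrays. Zfp42 fell by 6.47 ± 0.21 and Utf1 by 4.67 ± 0.26. Fgf4 and Dppa3 were called lower from means of 7.87 and 8.12 in ESCs to means of 2.11 and 3.96 in embryoid bodies, both near the floor. Esrrb was not called (-0.14 ± 0.07).

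The part of heart, fibroblast or endothelial cells in the rise of the smooth muscle contractile genes was not tested.

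**Figure D5:**
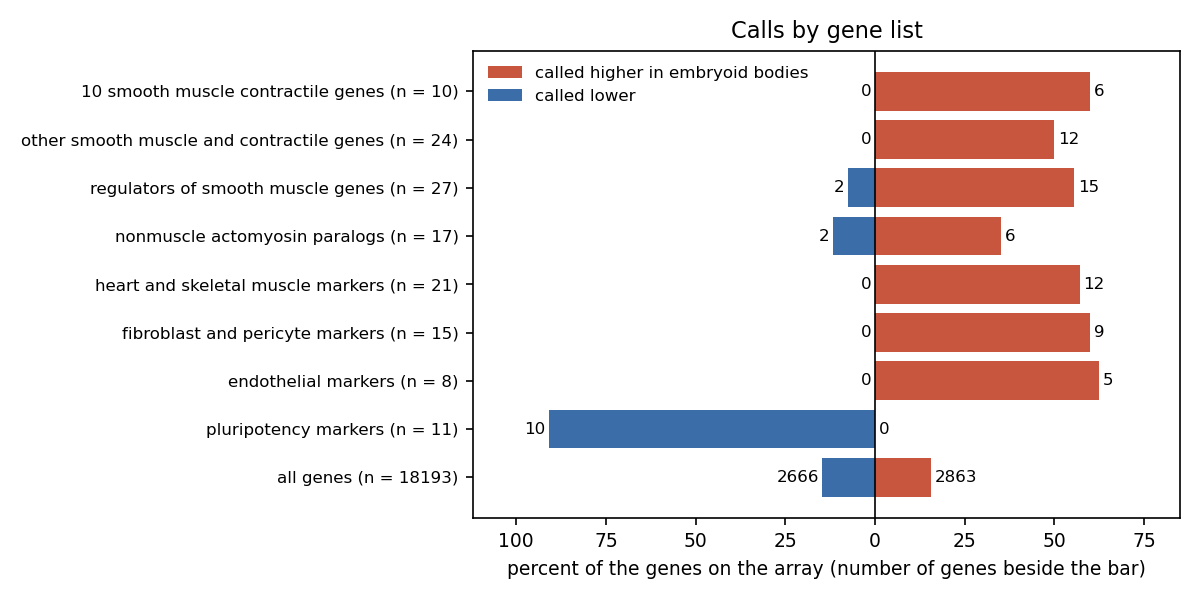
Percent of the genes of each list on the array that were called higher (red, to the right) or lower (blue, to the left) in embryoid bodies by limma, with the number of genes beside each bar. The 10 contractile genes have 6 higher and 0 lower, next to 2863 higher and 2666 lower among all 18193 genes.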

How the data were processed

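RNA of 4 ESC and 5 embryoid body samples was hybridized to one array each. The authors deposited intensities on a linear scale, made with GCRMA according to the submitters' processing notes, and whether the 9 arrays were processed in one run is not given in the sources used here. Values were put on the log2 scale with no further normalization. Of 45101 probe sets 64 controls were left out. Every column belonged to a sample. Probe sets were named by the array's annotation, with older symbols matched through synonyms, and 34945 had 1 symbol.

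Groups were compared with limma 3.58.1 in R 4.3.3 (lmFit, then eBayes with the trend and robust options) on the 45037 other probe sets. The tests were two-sided, P values were adjusted over all of these by Benjamini-Hochberg, and the procedure was tested on simulated data first. A gene was represented by its probe set with the highest mean. Errors are standard errors from limma, with 95% intervals. Pairs of probe sets were compared by exact permutation. The members, lists and tests were chosen with earlier results of these data known. Named genes were all members, up to 4 called genes per list with the largest change and up to 2 uncalled with the highest mean, and the 5 genes most like Acta2, other genes being named after their values were seen. Promoter sequences came from RefSeq (GRCm38.p6). Alternatives were quantile normalization, median centring, no trend or robust step, array weights, a mean of at least log2 4, a fold of at least 2, plain _at probe sets, the mean over the probe sets of a gene, array number as a block or subset, and each array left out.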

Additional observations from a re-analysis of the deposited data

Results flagged for a closer look

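In each group of arrays the most extreme value of every member probe set was compared with the others by its gap relative to the range of the group (Dixon's criterion). Of 52 groups 7 had such a value, where chance gives about 1 in 20 groups. Of the 7, 4 lie near the floor, where values span a small range.

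On 3 probe sets the value apart belonged to ESC array 10. The Mylk probe set 1425506_at read 4.58 there, against 5.03 on the other 3 ESC arrays, and the Acta2 probe set 1444105_at read 5.31 against 4.98 to 5.02. The Acta2 probe set 1456658_at read 2.31 against 2.28 on the others. On the same Mylk probe set embryoid body array 1 read 5.25, and the other embryoid body arrays read 5.01 to 5.06. The remaining values were near the floor, with 2.85 for the Tpm1 probe set 1447713_at on ESC array 6, 2.79 for the Mylk probe set 1425505_at on embryoid body array 7 and 2.56 for the Des probe set 1426732_at on ESC array 8.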

How the results depend on the processing

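The count of member genes called higher was 6 and the count lower 0 under every alternative run except a required fold of at least 2, which called 0 genes and 1 probe set. The member probe sets called higher were 12 to 14 with each array left out, 11 within arrays numbered 7 and above, 8 among plain _at probe sets and 14 elsewhere. Those called lower were 0 except 2 with array weights and 0 to 3 with each array left out, 3 without embryoid body array 9, each near the floor and differing by less than 0.1. The Tpm2 probe sets 1449577_x_at and 1419739_at lost the call in 4 and 3 of the 9 fits without one array. Comparing only ESC arrays 2 and 6 with the embryoid bodies was chosen after seeing the data. It gave a difference of 3.27 for the Acta2 probe set 1416454_s_at and of 1.86 for 1444105_at.

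Among all probe sets, 4729 were called higher and 4778 lower (49.7% of calls higher). Array weights gave 5328 and 12834 (29.3%), leaving out embryoid body array 9 gave 4893 and 12735 (27.8%), a fold of at least 2 gave 773 and 395 (66.2%), quantile normalization 4676 and 7076 and median centring 4958 and 7272. Within arrays numbered 7 and above 3122 were lower. The cause was not tested.

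Signs that turned all belonged to uncalled probe sets. The Cnn1 difference was -0.1662 within arrays numbered under 7 and -0.01442 to 0.1591 with each array left out, below 0 without embryoid body array 9 or ESC array 10. The Mylk probe set 1425505_at gave -0.02617 within arrays numbered under 7 and -0.01775 to 0.02979 with each array left out, and the Tpm1 probe set 1447713_at gave -0.01032 within arrays numbered 7 and above.

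Counts of the other lists that moved were as follows. At a fold of at least 2, 3 other smooth muscle genes, 9 regulators, 1 nonmuscle relative and 0 endothelial markers were higher and 0 nonmuscle relatives were lower. Other smooth muscle genes called lower were 2 with array weights, within arrays numbered under 7 and after quantile normalization, 1 with ESC arrays 2 and 6 only, and 0 to 1 with each array left out. Nonmuscle relatives called lower were 1 within arrays numbered 7 and above, with the mean over probe sets and with plain probe sets (where 3 were higher), and 1 to 2 with each array left out. Fibroblast markers called lower were 1 with array weights and with the mean over probe sets, and 0 to 1 with each array left out. Heart and skeletal muscle markers called lower were 1 within arrays numbered 7 and above and 0 to 2 with each array left out. After quantile normalization 6 of the 16 pairs of probe sets differed. No paired analysis was run, because the labels do not say whether ESC and embryoid body arrays are paired.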
